A study of Mus musculus with 12 samples.

Results

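Histone genes were followed on Affymetrix arrays of blood stem and progenitor cells from old mice, with and without NIPA and 3 h after ionizing radiation. A gene was a member if a probe set carrying exactly 1 platform symbol had a histone symbol (names starting Hist1h to Hist4h, or names starting H1f, H2ac, H2bc, H2af, H2az, H2ax, H3c, H3f and H4c), and the brightest probe set stood for the gene. The rule found 33 probe sets for 32 genes, of 22180 genes named on the array. They comprise 8 linker histone H1 genes, 9 H2A genes, 8 H2B genes and 7 H4 genes. No H3 gene was a member, because the H3 probe sets carry several symbols. The RefSeq gene table of the mouse holds 75 genes with such names, so less than the whole family is described gene by gene. Of the 32 members, 26 lie in the histone gene clusters, 21 of them on chromosome 13 and 5 on chromosome 3, and 6 lie elsewhere.

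The cells were LSK cells, which lack lineage markers, carry SCA1 and cKIT and are enriched for blood stem and progenitor cells. Donors were older than 20 months, on a C57BL/6 background reached by at least 10 backcross generations, and each sample merged the cells of 3 mice. The 4 groups of 3 arrays were NIPA knockout (KO) cells given 4 Gy, untreated KO cells, wild type (WT) cells given 4 Gy and untreated WT cells, and all were kept in the same medium with IL-3, IL-6 and SCF. NIPA is encoded by Zc3hc1, and the sources used here do not say which part of the gene the knockout lacks. Zc3hc1 had log2 values of 5.61 to 5.82 over the 6 KO arrays, against 7.67 to 8.47 over the 6 WT arrays. The labels do not say whether irradiated and untreated samples came from the same pools, so the p-values measure only the spread between these arrays.

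Histones package DNA into nucleosomes, in which H2A, H2B, H3 and H4 form the core and H1 binds the linker. The clustered genes are mostly replication-dependent: they are transcribed in S phase, when new DNA needs new histones, and most of their mRNAs end in a stem-loop bound by SLBP instead of a poly(A) tail. Variants encoded elsewhere, such as H2A.X and H2A.Z, are also made outside S phase or have roles of their own. H2A.X is the histone that becomes phosphorylated next to DNA breaks.

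The values are log2 expression values normalized by the submitters with RMA, and array medians lay between 5.74 and 5.85. Only genes brighter than 5.29 on 3 or more arrays were tested, a limit set at the 40th percentile over every probe set and array. This held for 23 members, namely 6 H1, 8 H2A, 5 H2B and 4 H4 genes. The 9 below the limit were H1f6, H1f7, H2ac12, H2bc1, H2bc9, H2bc14, H4c1, H4c2 and H4c17, among which H1f6, H1f7 and H2bc1 are known for their expression in the testis. Histone genes of a class are near-identical in sequence, so a probe set that carries 1 symbol may still bind transcripts of its neighbours, and every value below is uncertain to that extent.

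The promoters of 4 members are shown because their values carry the results below: H2bc22, which rose after irradiation, H2bc3 and H4c12, clustered genes which fell on average, and H2az2, a variant gene outside the clusters that fell. They were taken from RefSeq promoters of the build GRCm38.p6, cover 250 bases before to 50 after the annotated start, and are printed 5′ to 3′ along the gene. The windows are chr13:21787238-21787537 on the plus strand for H2bc22, chr13:23746484-23746783 on the plus strand for H2bc3, chr13:21750504-21750803 on the minus strand for H4c12 and chr11:6444394-6444693 on the minus strand for H2az2. Capitals mark matches, on either strand, to CCAAT (the box bound by NF-Y), TATAAA (the TATA box), ATTTGCAT (the octamer bound by OCT1, known from H2B promoters), TTTGAA (the cell cycle homology element) and TTTGGCGC (an E2F site).
H2bc22: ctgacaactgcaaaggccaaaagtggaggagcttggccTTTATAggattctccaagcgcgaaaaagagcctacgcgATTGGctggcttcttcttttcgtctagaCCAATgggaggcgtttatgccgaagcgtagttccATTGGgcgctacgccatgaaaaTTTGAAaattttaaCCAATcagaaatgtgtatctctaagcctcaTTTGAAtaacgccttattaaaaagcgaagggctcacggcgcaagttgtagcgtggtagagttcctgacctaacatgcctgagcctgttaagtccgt
H2bc3: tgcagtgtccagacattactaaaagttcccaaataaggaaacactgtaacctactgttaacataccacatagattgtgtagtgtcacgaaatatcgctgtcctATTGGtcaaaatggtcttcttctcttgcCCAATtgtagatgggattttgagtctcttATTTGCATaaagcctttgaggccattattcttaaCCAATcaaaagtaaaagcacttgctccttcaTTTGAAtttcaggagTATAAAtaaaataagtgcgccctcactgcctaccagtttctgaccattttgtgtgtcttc
H4c12: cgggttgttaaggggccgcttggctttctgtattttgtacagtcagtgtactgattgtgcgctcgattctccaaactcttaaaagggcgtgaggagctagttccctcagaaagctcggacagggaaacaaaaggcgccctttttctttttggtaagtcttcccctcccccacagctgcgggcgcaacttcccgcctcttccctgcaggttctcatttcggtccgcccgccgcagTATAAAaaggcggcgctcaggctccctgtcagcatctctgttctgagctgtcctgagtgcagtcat
H2az2: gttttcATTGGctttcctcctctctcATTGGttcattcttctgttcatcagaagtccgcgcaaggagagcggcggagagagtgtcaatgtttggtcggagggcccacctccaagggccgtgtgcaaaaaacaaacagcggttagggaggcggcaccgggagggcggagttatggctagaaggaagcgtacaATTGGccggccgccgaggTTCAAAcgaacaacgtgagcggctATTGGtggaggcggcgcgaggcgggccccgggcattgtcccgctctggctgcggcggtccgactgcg

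Within the clusters the promoters differ by histone class. Of the 32 members, 29 have a promoter in the table, 24 of them clustered. CCAAT was found in all 5 clustered H1, all 6 H2A and all 7 H2B promoters but in 1 of 6 H4 promoters. Over the clustered members this is 79.2%, against 37.9% of the promoters of all 27025 genes in the table. TATAAA was in 66.7% of the clustered members' promoters and in 14.2% of all. The octamer was in 5 of 7 H2B and 3 of 6 H2A promoters and in 0 of the H1 and H4 promoters, which is 33.3% of the clustered members against 1.75% of all. TTTGAA was in 37.5% against 18.1%, and TTTGGCGC in 0 of the 24 against 0.537%. Some neighbours are read away from each other and share part of their window, as H2ac12 and H2bc12 do, so these promoters are not independent. Of the sequences above, H2bc3 holds the octamer at position -90 from the start and TATAAA at position -10. H2bc22 has no octamer in this window, and its TATAAA lies far from the start at position -212, on the opposite strand. No match of a motif overlaps one of another in the 4 sequences. Whether any of these sites is used in LSK cells was not measured.

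Averaged over both genotypes, several histone genes were lower 3 h after 4 Gy and 2 of those tested were higher. By limma with Benjamini-Hochberg adjustment over the 15348 genes tested, 8 members fell and 2 rose, with a threshold of 0.05. The 8 were the variant genes H2ax and H2az2, the clustered H2A genes H2ac10 and H2ac21, the H2B genes H2bc3 and H2bc12, H4c12 and the linker gene H1f5. Those that rose were H2bc22 and H4c8. Of all genes tested, 16.5% passed in either direction, 6.9% higher and 9.6% lower. The members' median log2 change was -0.33, against -0.0045 over all genes, with 16 of 23 members below 0. By class, 4 of 8 H2A genes fell (class median -0.57), 2 of 5 H2B genes fell and 1 rose (median -0.50), 1 of 6 H1 genes fell (median -0.10), and among 4 H4 genes 1 fell and 1 rose (median 0.06). The H1 gene that fell, H1f5, and the H4 gene that rose, H4c8, exceeded the brightness limit only at their brighter dose. Their calls are therefore no support for a change, and among the 21 members without them 7 fell and 1 rose.

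Markers of other cells were read beside these values. Of 11 erythroid genes listed 7 were tested, and 6 of these fell on average, where 9.6% of all genes did. In KO cells 4 fell, where 3.2% of all genes did, and in WT cells 1 fell, where 2.7% did. Their mean level was 5.83 to 6.22 in irradiated and 6.89 to 7.24 in untreated KO cells, and 5.84 to 5.94 in irradiated and 6.52 to 6.84 in untreated WT cells. The irradiated arrays lay below the untreated ones in both genotypes, although the sort removes cells with the erythroid marker TER119. The part of these genes in the histone result was not tested. In bulk samples, fewer cells of a type and less RNA per cell cannot be told apart. In the lists for B cells, T and NK cells, granulocytes, monocytes and macrophages, mast cells and basophils, megakaryocytes, and endothelium and stroma, 0 genes passed in the average irradiation contrast. Array means of these lists still varied within groups. The B cell mean ran from 6.07 to 8.05 in irradiated and from 6.33 to 7.94 in untreated KO cells. The monocyte and macrophage mean was 7.83 and 7.67 on irradiated and untreated KO array 1, the highest of each group. The granulocyte mean ran from 7.45 to 8.69 in untreated WT cells. The part of this spread in the histone result was not tested. Kit, which the sort selects for, averaged 10.59 ± 0.44 in irradiated and 11.02 ± 0.28 in untreated KO cells, with 10.46 ± 0.68 in irradiated and 11.05 ± 0.23 in untreated WT cells. Its average difference of -0.51 (adjusted p = 0.128) passed without irradiated KO array 1 (0.0451) and without irradiated WT array 1 (0.0136). It also passed with the replicate block over all arrays (0.0145) or within genotype (0.0165), though the KO replicate numbers used there are in doubt. The part of Kit in the histone result was not tested. Itgam, whose protein CD11b the sort selects against, was above the limit, with values from 7.39 (irradiated WT array 2) to 8.66 (irradiated KO array 1). Of the listed T cell and granulocyte markers, Cd3e, Cd4, Cd8a and Ly6g were below the limit, while Cd3d, Cd3g and Cd8b1 were above it.

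**Figure D1:**
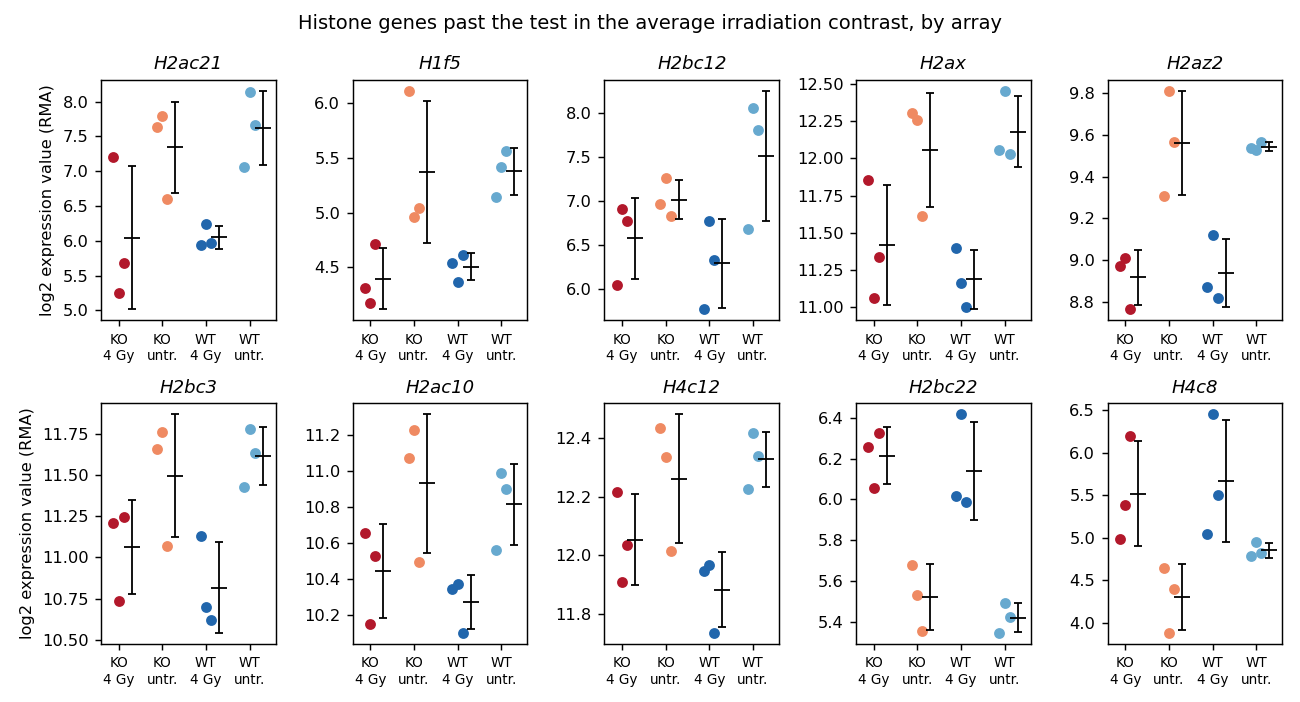
Log2 expression values (y axis) of the 10 histone genes past the limma test in the average irradiation contrast, in irradiated and untreated KO and WT cells (x axis). Each point is 1 array and the black marks are the mean and SD of 3 arrays; the vertical axes differ between panels and do not start at 0. H2bc22 lies between 5.99 and 6.42 on all 6 irradiated arrays, above the 5.35 to 5.68 of the untreated arrays.

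H2bc22 (older name Hist1h2bp), a clustered H2B gene, had the smallest adjusted p of the members. Its log2 values were 6.26, 6.06 and 6.33 in irradiated KO cells, against 5.68, 5.53 and 5.35 in untreated KO cells. In irradiated WT cells they were 6.02, 6.42 and 5.99, against 5.35, 5.49 and 5.42 in untreated WT cells. All 6 irradiated arrays were above all 6 untreated arrays. The average change was 0.71 (SE 0.10, limma adjusted p = 0.000439), a 1.63-fold higher level.

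The other H2B genes past the test moved the other way. H2bc3 (Hist1h2bb) had 11.21, 10.74 and 11.25 in irradiated KO cells, against 11.66, 11.76 and 11.07 in untreated KO cells. It had 11.13, 10.70 and 10.62 in irradiated WT cells, against 11.43, 11.78 and 11.64 in untreated WT cells. The groups parted in WT cells and overlapped in KO cells, where untreated array 3 was low, and the average change was -0.62 (SE 0.15, adjusted p = 0.0128). H2bc12 (Hist1h2bk) averaged 6.58 ± 0.46 in irradiated and 7.02 ± 0.22 in untreated KO cells, with 6.29 ± 0.51 in irradiated and 7.52 ± 0.74 in untreated WT cells (SD, n = 3 each). Its average change of -0.83 (SE 0.25, adjusted p = 0.0374) missed the threshold when irradiated KO array 1 or 3, any untreated KO array, irradiated WT array 1 or 3 or untreated WT array 2 or 3 was left out. The adjusted p was then at most 0.0949 (without untreated WT array 2).

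Among the H2A genes, both variants that fell lie outside the clusters. H2ax, the gene of H2A.X, had log2 values of 11.85, 11.06 and 11.34 in irradiated KO cells, against 12.30, 12.25 and 11.61 in untreated KO cells. In irradiated WT cells H2ax had 11.40, 11.16 and 11.00, against 12.06, 12.46 and 12.03 in untreated WT cells. Irradiated KO array 1 lay above untreated KO array 3, while the WT groups did not overlap. The average change of H2ax was -0.82 (SE 0.16, adjusted p = 0.00442), a 1.76-fold lower level. These are transcript levels, and the phosphorylated protein was not measured.

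H2az2, which encodes H2A.Z.2, had 8.97, 9.01 and 8.77 in irradiated KO cells, against 9.31, 9.81 and 9.57 in untreated KO cells. It had 8.87, 9.12 and 8.82 in irradiated WT cells, against 9.54, 9.53 and 9.57 in untreated WT cells. Every irradiated array was below every untreated array, with a change of -0.63 (SE 0.10, adjusted p = 0.00104). H2az1, which encodes the closely related H2A.Z.1, did not pass: its average change was -0.14 (95% confidence interval -0.32 to 0.03, adjusted p = 0.27), with means of 7.03 ± 0.15 in irradiated and 7.02 ± 0.15 in untreated KO cells and 6.91 ± 0.07 in irradiated and 7.20 ± 0.10 in untreated WT cells. The difference between the changes of H2az1 and H2az2 was not tested.

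Of the clustered H2A genes, H2ac21 (Hist2h2ab, chromosome 3) had the largest average change and the largest standard error. Its log2 values were 7.20, 5.25 and 5.69 in irradiated KO cells, against 7.63, 7.79 and 6.60 in untreated KO cells, and irradiated array 1 lay above untreated array 3. In WT cells it had 5.94, 6.24 and 5.97 after irradiation, against 7.06, 8.14 and 7.66 without it, and the groups did not overlap. The average change was -1.43 (SE 0.32, adjusted p = 0.00894). It was -0.75 (adjusted p = 0.0103) when the gene's second, dim probe set was averaged in. H2ac10 (Hist1h2af) averaged 10.44 ± 0.26 in irradiated and 10.93 ± 0.39 in untreated KO cells, and 10.27 ± 0.15 in irradiated and 10.82 ± 0.23 in untreated WT cells (SD, n = 3 each). Its change of -0.52 (SE 0.14, adjusted p = 0.0238) missed the threshold without irradiated KO array 2, untreated KO array 1 or 2, irradiated WT array 3 or untreated WT array 2 or 3, at up to 0.0635 without untreated WT array 2.

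Of the H4 genes, which all encode the same core protein, H4c12 and H4c8 moved apart. H4c12 (Hist1h4k) averaged 12.05 ± 0.15 in irradiated and 12.26 ± 0.22 in untreated KO cells, and 11.88 ± 0.13 in irradiated and 12.33 ± 0.09 in untreated WT cells. Its change was -0.33 (SE 0.09, adjusted p = 0.0329), and the adjusted p was 0.0558 when array medians were made equal. It was between 0.0652 and 0.0833 without irradiated KO array 2 or 3, untreated KO array 1 or 2, irradiated WT array 3 or untreated WT array 2 or 3. H4c8 (Hist1h4h) had 4.98, 5.38 and 6.19 in irradiated KO cells, against 4.64, 3.88 and 4.39 in untreated KO cells. It had 5.05, 6.45 and 5.50 in irradiated WT cells, against 4.78, 4.94 and 4.82 in untreated WT cells. Its average change was 1.01 (SE 0.25, adjusted p = 0.0143), and every irradiated array was above every untreated array. A probe set shared by H4c8 with H4c1, H4c2, H4c9, H4c17 and H4c18 exceeded the brightness limit on 6 irradiated and 6 untreated arrays. This shared probe set did not rise: its average difference was -0.19 (SE 0.10, limma adjusted p = 0.213). It had -0.06 in KO cells and -0.32 in WT cells (adjusted p = 0.866 and 0.222). Which of its genes gave that signal cannot be read from it.

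H1f5 (Hist1h1b) was the linker gene that fell. It had 4.31, 4.17 and 4.71 in irradiated KO cells, against 6.12, 4.96 and 5.04 in untreated KO cells. It had 4.54, 4.37 and 4.61 in irradiated WT cells, against 5.15, 5.42 and 5.57 in untreated WT cells. No irradiated array reached an untreated one, and the average change was -0.92 (SE 0.18, adjusted p = 0.00494). H1f5 exceeded the brightness limit on 3 untreated arrays and 0 irradiated arrays, and H4c8 on 4 irradiated arrays and 0 untreated arrays, so these genes could be tested only because they differed. Without them, 7 of 21 members fell and 1 rose. Without a brightness limit, 8 of the 32 members fell and 3 rose, the addition being H4c1, and 10.8% of all genes passed.

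In the fit of all 12 arrays as deposited, without a replicate block, the remaining linker genes did not pass. H1f2 had means of 7.87 ± 0.20 in irradiated and 7.31 ± 0.32 in untreated KO cells, and of 7.87 ± 0.40 in irradiated and 7.51 ± 0.38 in untreated WT cells, a difference of 0.46 (SE 0.17, adjusted p = 0.0826). Its adjusted p was 0.0488 with array medians made equal, 0.0439 under cyclic loess, 0.0309 without irradiated WT array 3 and 0.0415 without untreated WT array 1. H1f10, a variant gene outside the clusters, had a difference of -0.24 (95% interval -0.67 to 0.20). H1f8, known for its expression in the oocyte, had 0.03 (interval -0.18 to 0.23). Of the other members not past the test, 4 (H1f1, H2ac15, H2ac20 and H2bc18, named after their values were seen) had an adjusted p between 0.0523 and 0.092, all with lower values after irradiation. Each of the 4 passed in some unblocked alternatives, H1f1 without irradiated WT array 3 or without untreated WT array 1. With the replicate block within genotype H1f2 (0.0116) and these 4 passed too, which makes 3 higher and 12 lower of 23, where 21.6% of all genes passed. The KO replicate numbers used in that block are in doubt, so these blocked calls are too. The last 5, H1f3, H2ac1, H2bc21, H4c9 and H4c14, lay between -0.06 and 0.20.

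In KO cells taken alone, 1 member rose and 2 fell after 4 Gy, while of all genes tested 5.94% passed, 2.74% higher and 3.2% lower. H2bc22 rose by 0.69 (SE 0.14, adjusted p = 0.0115). H2az2 fell by 0.64 (SE 0.14, adjusted p = 0.0164) and H1f5 fell by 0.97 (SE 0.26, adjusted p = 0.0474). The median change of the members was -0.32, against -0.02 over all genes. The irradiated and untreated KO arrays did not overlap for 3 members with higher and 3 with lower values, as they did not for 10.2% and 13.2% of all genes. H1f5 is one of the genes tested only through their brighter dose, and among the 21 members without them 1 rose and 1 fell. The count was 5 without irradiated KO array 1, on which H2ax and H2ac21 were high, and 1 without irradiated KO array 3. The change of H1f5 was -0.60 without untreated KO array 1, and it missed the threshold in 13 of 21 alternatives, at up to 0.161 (without irradiated KO array 2). H2az2 missed it in 4 of 22, among them without irradiated KO array 3 (0.0683) and without untreated KO array 2 (0.0799) or 3 (0.0506).

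In WT cells, 1 member rose and 3 fell, with a background of 4.83%, 2.13% higher and 2.7% lower. H2bc22 rose by 0.72 (SE 0.14, adjusted p = 0.0099), a fold of 1.65. H2ax fell by 0.99 (SE 0.23, adjusted p = 0.0259), H2az2 fell by 0.61 (adjusted p = 0.0249) and H2bc3 fell by 0.80 (SE 0.21, adjusted p = 0.0455). The median of the members was -0.44, against 0.0039 over all genes. Values of 11 members were lower and of 2 higher with no overlap between the groups, as for 13.3% and 11.4% of all genes. Same-numbered WT arrays deviated together (their deviations from the group means correlated at 0.42 to 0.49), but the labels do not give a pairing. With the replicate block within genotype 7 members passed, where 8.0% of all genes did. H2bc22 rose and 6 fell, among them H2ax, H2az2, H2ac21 (adjusted p = 0.0239) and H2bc12, while H2bc3 was at 0.061. Unblocked, the count was 2 without irradiated WT array 2, and 1 without irradiated WT array 3 or untreated WT array 2 or 3, that gene being H2bc22. Without the block, H2az2 missed the threshold when irradiated WT array 1 or 3 or any untreated WT array was left out (at most 0.11, without irradiated array 3). H2ax missed it without irradiated or untreated WT array 2 or 3 (at most 0.125, without untreated array 2). H2bc3 missed it in 11 of 22 alternatives, at up to 0.173 without untreated WT array 2.

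**Figure D2:**
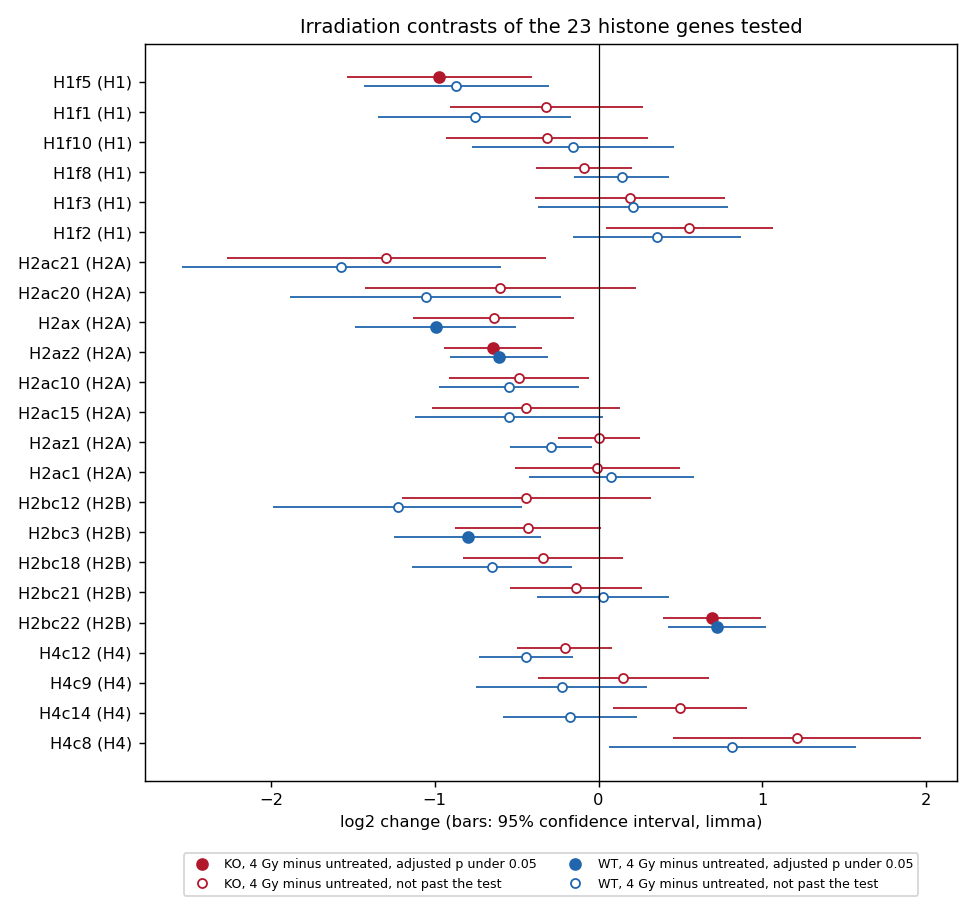
Log2 changes after 4 Gy (x axis) of the 23 histone genes tested, ordered by class and average change, in KO cells (red) and WT cells (blue). Bars are 95% confidence intervals from limma and filled points have an adjusted p under 0.05; H2bc22 is the member right of 0 with filled points in both genotypes.

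The response to 4 Gy did not differ detectably between KO and WT cells for any member. By limma 0 of 23 members passed the interaction test, 1 had an unadjusted p under 0.05, and over all genes 0.0% passed and 1.53% had an unadjusted p under 0.05. The member was H4c14, a clustered H4 gene, with log2 values of 6.64, 6.65 and 6.98 in irradiated KO cells, against 6.57, 6.16 and 6.06 in untreated KO cells. It had 6.06, 6.35 and 6.60 in irradiated WT cells, against 6.49, 6.25 and 6.80 in untreated WT cells. Irradiated arrays were all higher in KO cells, and the WT groups overlapped. Its interaction was 0.67 (95% interval 0.09 to 1.25, limma unadjusted p = 0.0265). For H2bc22 the interaction was -0.03 (interval -0.45 to 0.39), for H2az2 -0.04 (interval -0.46 to 0.39) and for H2ax 0.35 (interval -0.34 to 1.05). H2bc12 had 0.79 and H2az1 0.29, neither past the test. The members' median interaction was 0.24, against -0.01 over all genes, and 0.05 without irradiated KO array 1.

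Between KO and WT cells no histone gene passed the test at either dose. Of all genes tested 0.00652% passed in each genotype contrast, which is Zc3hc1 alone, and 0 members did. In untreated cells 0 of 23 members had an unadjusted p under 0.05, as 2.15% of all genes did. In irradiated cells 1 member did, against 3.07% of all genes: H4c14 at 0.42 (SE 0.19, limma unadjusted p = 0.0448). H2ax differed by -0.12 (95% interval -0.61 to 0.37) between untreated KO and WT cells and by 0.23 (interval -0.26 to 0.72) after 4 Gy. H2bc22 differed by 0.10 (interval -0.20 to 0.40) and 0.07 (interval -0.23 to 0.37). The smallest p without irradiation belonged to H4c9 (-0.39), H4c8 (-0.54) and H2az1 (-0.18), and after it, besides H4c14, to H1f1 (0.49) and H2bc21 (-0.28). Averaged over doses the smallest were those of H2ac1 (0.27), H2bc21 (-0.20) and H1f1 (0.27), and 0 members had an unadjusted p under 0.05, against 4.14% of all genes.

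Probe sets shared by several histone genes reach the genes that the members leave out, the H3 genes among them. The table holds 30 of them, 28 with distinct values, and 17 passed the brightness limit. When they were added to the fit, 3 rose and 3 fell on average over both genotypes, where 16.5% of all features passed. In KO cells 2 rose and in WT cells 1, where 5.91% and 4.84% of all features passed. The largest rise was that of a probe set for the H2B genes H2bc4, H2bc6 and H2bc8. It had log2 values of 9.46, 9.55 and 9.25 in irradiated KO cells, against 8.12, 8.03 and 8.21 in untreated KO cells. In WT cells it had 9.71, 9.50 and 9.28 after irradiation, against 8.67, 8.40 and 7.93 without it. All 6 irradiated arrays were above all untreated ones, and the change was 1.23 (SE 0.12, limma adjusted p = 4.25e-05), or 2.35-fold. It passed in KO cells (1.30, adjusted p = 0.0011) and in WT cells (1.16, adjusted p = 0.00227). A second tested probe set annotated to the same 3 genes had an average difference of 0.22 (95% interval -0.51 to 0.96, adjusted p = 0.716), with 0.29 in KO cells and 0.16 in WT cells.

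Probe sets of the same class or of the same genes moved in both directions. A probe set of 8 H3 genes (H3c2, H3c3, H3c4, H3c6, H3c7, H3c13, H3c14 and H3c15) rose by 0.96 on average (adjusted p = 0.00365), while one of 4 other H3 genes (H3c1, H3c8, H3c10 and H3c11) fell by 0.78 (adjusted p = 0.0109). The H3 probe set that rose averaged 6.24 ± 0.22 in irradiated and 4.88 ± 0.26 in untreated KO cells, and 6.09 ± 0.48 in irradiated and 5.54 ± 0.45 in untreated WT cells. The one that fell averaged 7.12 ± 0.23 in irradiated and 7.87 ± 0.51 in untreated KO cells, and 7.08 ± 0.41 in irradiated and 7.90 ± 0.21 in untreated WT cells (SD, n = 3 each). The rise was 1.36 in KO cells (adjusted p = 0.0087) and the value in WT cells was 0.55 (adjusted p = 0.257), and the interaction of 0.81 (95% interval 0.02 to 1.60) did not pass the limma test. The other 4 tested probe sets of these 8 H3 genes lay between -0.25 and 0.72 on average, none past the test (the smallest adjusted p was 0.22). For 10 H2A genes 1 probe set rose by 0.81 (adjusted p = 0.0107), and another annotated to the same genes fell by 0.47 (adjusted p = 0.0162). A further tested probe set of these 10 genes had 0.12 and did not pass (adjusted p = 0.794). One that also carries H2ac10 and H2ac15 had -0.28 and did not pass either (adjusted p = 0.0737). The H2A probe set that rose exceeded the brightness limit on 6 irradiated arrays and 1 untreated array, and the H3 probe set that rose on 6 irradiated and 2 untreated arrays, so both were tested only through their brighter dose. For H2bc7, H2bc11, H2bc13 and H2bc15 a probe set fell by 0.58 (adjusted p = 0.0174). A second tested probe set of the same genes, at -0.52, did not pass (adjusted p = 0.112). All 6 shared probe sets past the test kept their call on the average contrast in the 17 alternatives run for them, chosen after seeing the data. Which gene of such a set gave the signal cannot be read from it.

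**Figure D3:**
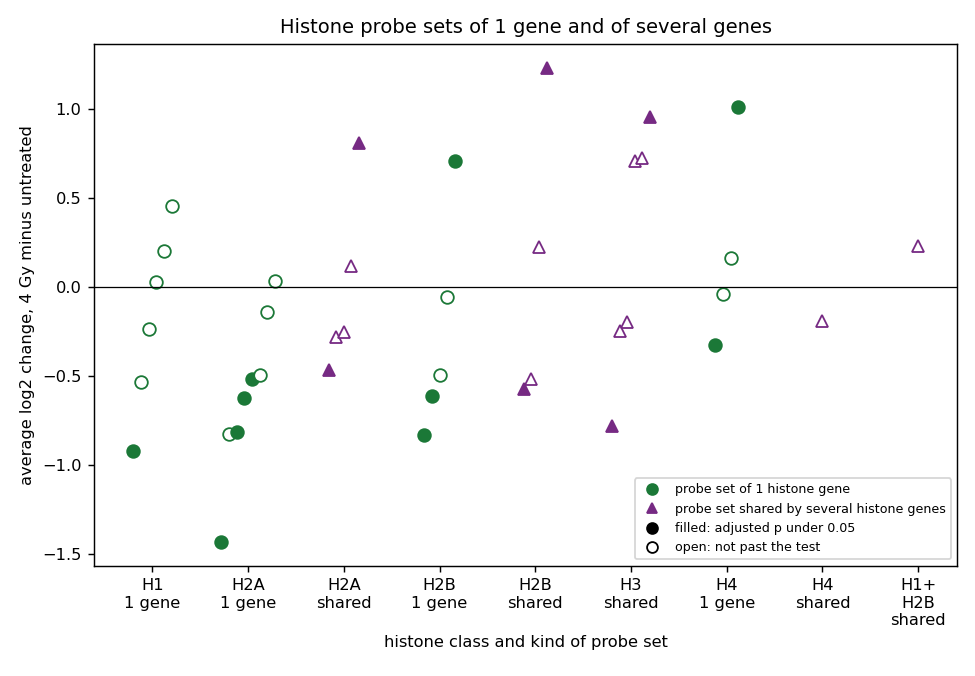
Average log2 change after 4 Gy (y axis) of probe sets of 1 histone gene (green circles) and of probe sets shared by several histone genes (purple triangles), by histone class (x axis). Filled symbols have an adjusted p under 0.05; the highest point is the shared H2B probe set at 1.23 and the lowest is H2ac21 at -1.43.

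Genes that serve histones were described by lists. Of 27 genes of S phase (the replication helicase, polymerases and nucleotide supply), 19 fell and 0 rose on average, where 9.6% of all genes fell and 6.9% rose. The median of the list was -0.49, against -0.0045 over all genes. The array means of this list were 7.77 to 8.03 in irradiated and 8.26 to 8.69 in untreated KO cells, and 7.75 to 8.03 in irradiated and 8.22 to 8.60 in untreated WT cells. Gins1, a subunit of the helicase complex, fell by 1.18 (adjusted p = 0.00244), Prim1, the primase, fell by 0.89 (adjusted p = 0.000924), Lig1, the DNA ligase of replication, fell by 0.79 (adjusted p = 0.00022) and Tyms, thymidylate synthase, fell by 0.75 (adjusted p = 0.000156). Pole, a replicative polymerase, fell by 0.87, and by 0.38 when its probe sets were averaged. The median of the list was -0.42 in KO and -0.54 in WT cells.

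Of 26 histone chaperones and deposition factors, 8 fell and 0 rose on average, where 9.6% of all genes fell and 6.9% rose. The median of the list was -0.20, against -0.0045 over all genes. Asf1b, a chaperone that hands H3 and H4 to the deposition machinery, had 7.78, 7.40 and 7.86 in irradiated KO cells, against 8.61, 9.15 and 8.44 in untreated KO cells. It had 7.65, 7.53 and 7.54 in irradiated WT cells, against 8.50, 8.96 and 8.72 in untreated WT cells. No irradiated array reached an untreated one, and the change was -1.10 (SE 0.13, adjusted p = 0.000156). Ipo4, an importin that carries histones into the nucleus, fell by 0.62 (by 0.40 when its probe sets were averaged), Mms22l, the partner of TONSL, a reader of newly made H4, fell by 0.56, and Set, a histone chaperone, fell by 0.55. Mis18a, which helps to load the centromeric H3 variant, fell by 0.47, and that variant's gene, Cenpa, fell by 0.74 (adjusted p = 0.00028). The count was 5 without untreated KO array 2, irradiated WT array 3 or untreated WT array 2.

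Of 19 tested factors that make and process histone mRNA, 1 rose and 1 fell on average, with a median of -0.09. Over all genes 6.9% rose and 9.6% fell, so this count is near the background. Tut7, which adds uridines to RNA ends, rose by 0.28 (adjusted p = 0.0437) but missed the threshold without irradiated KO array 2 or 3, any untreated KO array, irradiated WT array 1 or 2 or untreated WT array 2 or 3, at up to 0.108 (without untreated KO array 2). Cstf2, a cleavage stimulation factor, fell by 0.46 (adjusted p = 0.0155). With 1 array left out the count lay between 1 and 7, the highest without irradiated KO array 1. Slbp, the stem-loop binding protein, had a difference of -0.22 (interval -0.43 to 0.0013, adjusted p = 0.168). Npat, the activator of clustered histone genes, had -0.08 (interval -0.29 to 0.13), and Casp8ap2 (FLASH), which acts at the same genes, had -0.09 (interval -0.26 to 0.09).

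**Figure D4:**
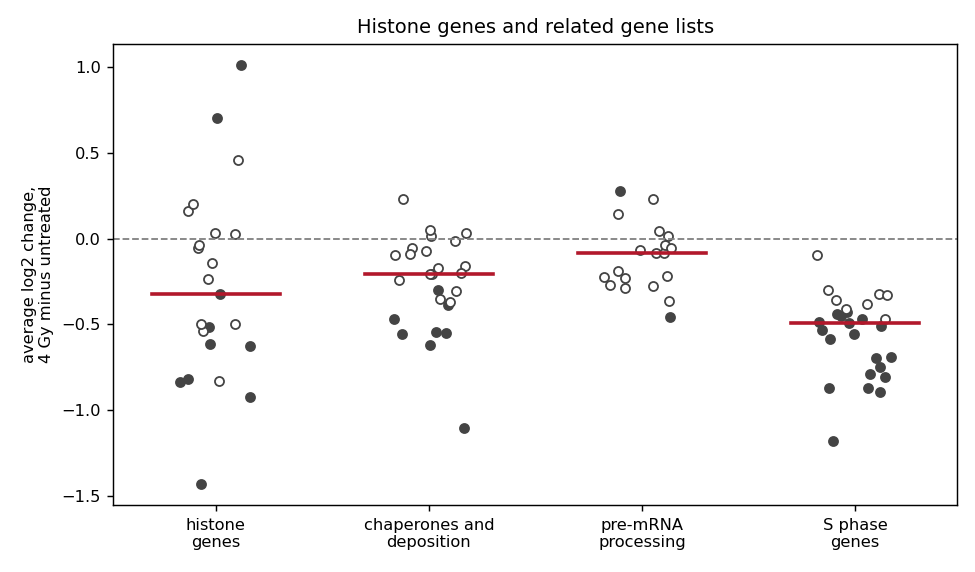
Average log2 change after 4 Gy (y axis) of each tested histone gene and of each tested gene of 3 related lists (x axis). Filled points have an adjusted p under 0.05, red lines are list medians and the dashed line is the median of all genes tested; 19 of the 27 S phase genes are filled and all lie below 0.

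The mean of the 18 tested clustered members lay at 7.14 to 7.40 in irradiated and 7.13 to 7.67 in untreated KO cells, and at 7.04 to 7.27 in irradiated and 7.37 to 7.66 in untreated WT cells. The KO groups overlap and the WT groups do not. The genes whose values followed this mean most closely over the 12 arrays, by Pearson correlation, were Sf3a3 (0.94), a splicing factor subunit, Slc5a6 (0.94), a vitamin transporter, Cd48 (0.93), a surface protein of blood cells, Tecr (0.93), an enzyme of fatty acid elongation, and Ydjc (0.92). The arrays share the dose groups. Within the 6 irradiated arrays the correlations were 0.84 to 0.99, and within the 6 untreated ones 0.91 to 0.98. The genes were picked for the highest correlations over these same arrays. High values within a dose partly follow from that choice, and a link beyond the dose was not tested.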

How the data were processed

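LSK cells of NIPA KO and WT mice were measured on 12 Affymetrix arrays, amplified with WT Pico chemistry per the labels' protocols. What the authors deposited are log2 values of each probe set on each array, made with RMA in the R package oligo per the submitters' processing notes. RMA corrects background, makes array distributions equal and summarises probes, which can shrink changes of dim probe sets. The sources used here give no versions, genome build or annotation release. Precision is limited by the number of arrays. The median half-width of a 95% interval was 0.32 for a contrast of 2 groups, 0.45 for the interaction and 0.23 for the averages.

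Of 41345 probe sets, 23521 had 1 platform symbol, 1814 several and 16010 none. IDs of 23328 matched the RefSeq gene table, which gave current symbols. The brightest probe set per gene was used. Limma 3.58.1 in R 4.3.3 (lmFit, eBayes) fitted all 12 arrays with 4 group means. The average irradiation contrast is the mean of the KO and WT contrasts, and the interaction is KO minus WT. P-values are two-sided, adjusted by Benjamini-Hochberg over 15348 genes, and the script was tested on simulated data. The members and gene lists were chosen with earlier results of these data known. Named were members past the test (up to 12 each way per contrast), variants outside the clusters, the brightest member of each class, the 3 smallest p of contrasts without calls, up to 4 called genes per list, Slbp, Npat, Casp8ap2, Cenpa, Zc3hc1 and Kit, and the 5 genes closest in pattern to the clustered members. Same-numbered WT arrays deviated together (correlations 0.49, 0.48 and 0.42), and the numbers do not pair the KO arrays (0.47, -0.24 and -0.12, while irradiated array 2 with untreated array 3 gave 0.52 and irradiated array 3 with untreated array 2 gave 0.44). No arrays were paired across numbers. Motifs were counted in 1 RefSeq promoter of 300 bases per gene.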

Additional observations from a re-analysis of the deposited data

How the results depend on the processing

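The calls of H2bc22, H2az2, H2ax, H2bc3 and H2ac21 in the average irradiation contrast held in every alternative in which the gene could be tested. So did those of H1f5 and H4c8, which were tested only through their brighter dose. With 1 array left out, 7 to 13 members passed there, 1 to 5 in KO cells and 1 to 6 in WT cells. In the 4 genotype and interaction results 0 members passed in every alternative run. The count in KO cells was 1 with a brightness limit at the 60th percentile, which H2bc22 and H1f5 do not reach, 1 with only the KO arrays in the fit and 5 with the shared probe sets added. In WT cells 7 passed when the fit held no KO arrays. With the shared probe sets added, 16 passed on average, 5 higher and 11 lower. With the replicate block over all arrays the counts were 3 in KO cells, 6 in WT cells and 15 on average, where 7.97%, 7.01% and 20.3% of all genes passed. With the replicate block within genotype they were 7 in KO cells (3 higher, 4 lower) and 7 in WT cells, where 9.06% and 8.0% of all genes passed. Shares of all genes are not given for the fits with 1 array left out, with 1 genotype only or with the 60th percentile limit. Those counts therefore have no background beside them and cannot be read as particular to histone genes. In KO cells only the arrays numbered 1 deviated together, so the blocked KO counts and the blocked averages rest on numbers that are in doubt. The causes of these shifts were not tested.

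Values that changed sign were all small and not past the test. With array medians made equal and under cyclic loess, the KO change of Npat was 0.0287 and 0.0176 and that of Casp8ap2 was 0.0137 and 0.0241, and H1f8 on average was -0.028 under cyclic loess. With 1 array left out, H2az1 in KO cells ranged from -0.0635 to 0.0887, Npat in KO cells from -0.0989 to 0.0677, Casp8ap2 in KO cells from -0.0972 to 0.0289, H1f10 in WT cells from -0.4011 to 0.008, Npat in WT cells from -0.2547 to 0.012 and H1f8 on average from -0.0384 to 0.0922. Dim members limit what can be said: 9 of 32 lay below the limit.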
